A study of Capra hircus with 6 samples.

Results

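Astrocytes are the glial cells that take up the glutamate and potassium released by neurons, surround blood vessels with their endfeet and pass small molecules to each other through gap junctions. In the hypothalamus they lie against neurons that secrete gonadotropin-releasing hormone and are known to signal to them. The transcripts of 10 genes that mark astrocytes were examined: GFAP and S100B (cytoskeleton and calcium binding), ALDH1L1 and ALDOC (folate and sugar metabolism), SLC1A2, SLC1A3 and GLUL (glutamate uptake and its conversion to glutamine), AQP4 (water channel), and GJA1 and GJB6 (gap junctions). The genes were chosen by symbol, and the FPKM of all transcripts of a gene (fragments per kilobase of transcript, scaled to the mapped fragments of the library) were added up in each library. All 10 were found, with 14 of the 30679 transcripts and 10 of the 20225 genes of the mRNA table. Some of them are not confined to astrocytes, since oligodendrocytes also use GLUL and S100B, tanycytes also use GFAP and SLC1A3, and the meninges also use GJA1 and GJB6.

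Hypothalamus RNA came from female Anhuai goats, 3 pubertal of 4.5 to 5 months and 3 prepubertal of 2.5 to 3 months, with 1 library per goat. The pubertal goats were recognised by estrus and the appearance of the vulva and were killed in the late follicular phase, so age, body size and ovarian phase cannot be told apart from puberty in this design. Hypothalamic tissue was dissected out, and no cell type was isolated. In such tissue, fewer astrocytes and less RNA per astrocyte cannot be told apart. Values of single libraries are listed in the order of replicates 1, 2 and 3. The labels do not say whether this number ties goats of different stages together, and it was not taken to pair them.

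In both stages the hypothalamus held high levels of most of these genes, and the stages were close. GFAP averaged 2493 ± 216 FPKM in pubertal against 2368 ± 113 FPKM in prepubertal goats (SD, n = 3 each). ALDH1L1 was higher in the pubertal goats, 15.2 ± 3.77 against 9.42 ± 1.57 FPKM (SD, n = 3 each), and ALDOC was lower, 779.8 ± 57.4 against 902.7 ± 61.3 FPKM (SD, n = 3 each). In these 2 genes the libraries of the stages did not overlap, as in 9.75% of the 16397 genes tested (5.91% with pubertal higher and 3.84% with pubertal lower), and in the other 8 they did. The genes were tested with limma on log2(FPKM + 1), over all genes with a mean of at least 0.1 FPKM, with p-values adjusted after Benjamini and Hochberg and called under 0.05. None of the 10 had an adjusted p-value under 0.05 (the lowest was 0.795), and neither had any of the 16397 genes (0.0%). At an unadjusted p-value under 0.05 there was 1 of the 10, ALDH1L1, higher in pubertal goats, against 846 of all genes (5.16%, of which 3.51% of the genes tested were higher and 1.65% lower), so the share among the 10 rests on this single gene. After quantile normalization the split over all genes was 462 higher and 377 lower, in place of 575 and 271. The count of 1 became 2 without pubertal replicate 1, when GJA1 was added.

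The median log2 fold change of the 10 genes was -0.070, beside -0.00065 for all genes tested, with 4 genes higher and 6 lower in the pubertal goats. It was -0.11 without pubertal replicate 3, 0.0044 without pubertal replicate 2 and -0.021 after quantile normalization. Apart from ALDH1L1, the largest difference was that of ALDOC, -0.21, and for these 9 genes the 95% interval of the difference held 0. A p-value above the threshold does not show that the levels were equal, and the intervals give the differences that these goats leave possible.

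**Figure D1:**
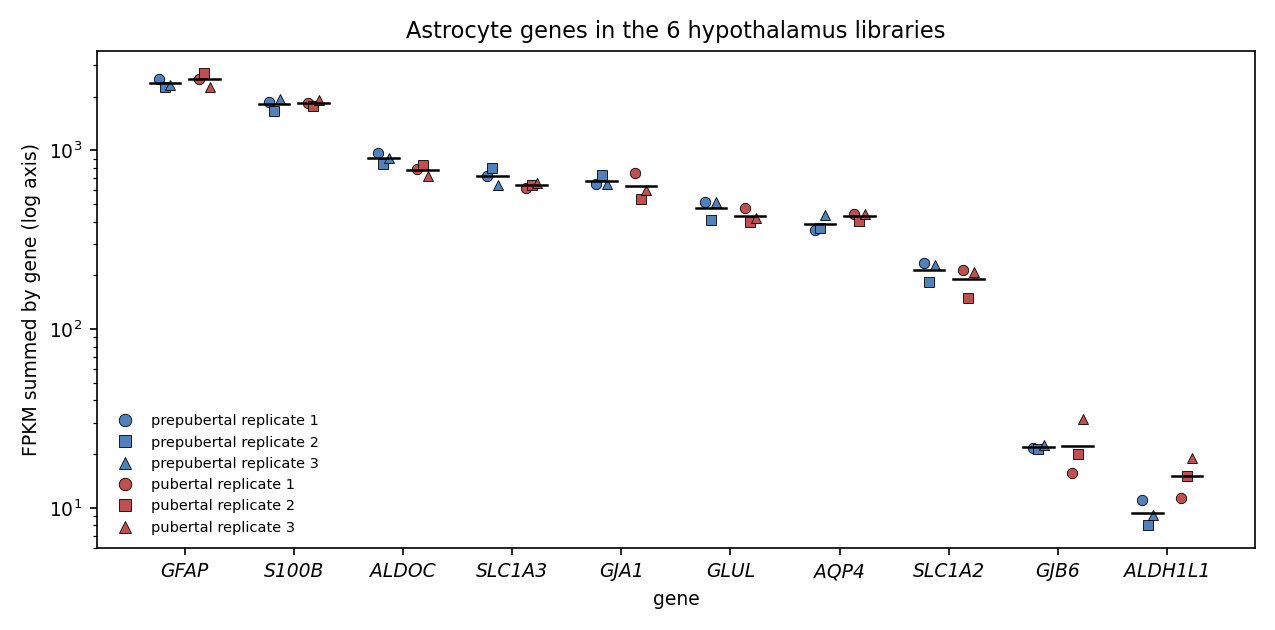
FPKM of each of the 10 astrocyte genes, summed over transcripts, in the 3 prepubertal (blue) and 3 pubertal (red) libraries on a log axis, with a bar at the mean of each stage. GFAP and S100B lie highest, between 1666 and 2698 FPKM, GJB6 and ALDH1L1 lie lowest, between 8.02 and 31.5 FPKM, and only in ALDOC and ALDH1L1 do the red and blue points not overlap.

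The levels of the 10 genes, which FPKM scales by length, spanned a wide range. GFAP had a mean of 2431 FPKM over the 6 libraries and ranked 16 among the 16397 genes, and S100B had 1836 FPKM and ranked 22. ALDOC (841 FPKM, rank 94), SLC1A3 (681 FPKM, rank 117), GJA1 (653 FPKM, rank 125), GLUL (455 FPKM, rank 183), AQP4 (409 FPKM, rank 206) and SLC1A2 (203 FPKM, rank 432) followed. GJB6 (22.1 FPKM, rank 4773) and ALDH1L1 (12.3 FPKM, rank 7295) were far lower, although ALDH1L1 is often used as a general marker of astrocytes. The order of SLC1A3 and GJA1 held in 4 of 6 libraries, as did that of GLUL and AQP4, so these neighbours did not differ beyond their spread. The other neighbours kept their order in 6 of 6 libraries, although the ranges of ALDOC and SLC1A3, and of GJB6 and ALDH1L1, overlapped between libraries.

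GFAP encodes the intermediate filament protein of astrocytes. It was at 2513, 2698 and 2268 FPKM in the 3 pubertal goats, against 2495, 2278 and 2332 FPKM in the 3 prepubertal goats. Pubertal replicate 2 was highest and pubertal replicate 3 lowest, so the prepubertal libraries lay inside the pubertal range. On the log2 scale the difference was 0.072 with a standard error of 0.16 (adjusted p = 0.979, limma), and its 95% interval ran from 0.819-fold to 1.35-fold. It was 0.013 without pubertal replicate 2, 0.044 without prepubertal replicate 2, 0.11 without prepubertal replicate 1, 0.14 without pubertal replicate 3 and 0.24 after quantile normalization.

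S100B encodes a calcium-binding protein that astrocytes also secrete. It was at 1846, 1780 and 1921 FPKM in the 3 pubertal goats, against 1865, 1666 and 1939 FPKM in the 3 prepubertal goats. It was the steadiest of the 10 genes, its highest library being 1.16 times its lowest. The log2 difference of 0.023 had a 95% interval from 0.811-fold to 1.27-fold (adjusted p = 0.996 from limma), and it became -0.0052 without pubertal replicate 3 and -0.041 without prepubertal replicate 2.

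ALDH1L1 encodes a folate enzyme, 10-formyltetrahydrofolate dehydrogenase. It was at 11.4, 15.2 and 19.0 FPKM in the 3 pubertal goats, against 11.1, 8.02 and 9.13 FPKM in the 3 prepubertal goats. All pubertal libraries lay above all prepubertal libraries, but pubertal replicate 1 was only just above prepubertal replicate 1, and the pubertal goats differed more among themselves than the prepubertal goats. The difference of 0.62 on the log2 scale had a standard error of 0.19 and a 95% interval from 1.14-fold to 2.07-fold, with an unadjusted p-value of 0.0103 and an adjusted p-value of 0.795 in limma. An exact two-sided permutation test gave p = 0.1, the smallest that 3 libraries against 3 allow. With each library left out in turn the log2 fold change ran from 0.46, without pubertal replicate 3, to 0.80, without pubertal replicate 1. Over all alternatives its unadjusted p-value ran from 0.00213 to 0.0411 and its adjusted p-value from 0.288 to 1.

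The same direction was seen for markers of leptomeningeal fibroblasts, the cells of the membranes that cover the brain. Their summed level lay between 140.4 and 362 FPKM in pubertal and between 64.6 and 109 FPKM in prepubertal libraries, and pubertal replicate 3, the library highest in ALDH1L1, was highest here too. Without that library the stages did not overlap either, and the median log2 fold change of these markers was 0.49 in place of 1.06. Within the stages the order of the other libraries differed from that of ALDH1L1. Prepubertal replicate 1 had the lowest sum, 64.6 FPKM, but the highest ALDH1L1 of its stage. Pubertal replicate 1 had a higher sum than pubertal replicate 2, 163 against 140.4 FPKM, but less ALDH1L1. Of the 8 leptomeningeal marker genes, 4 had an unadjusted p-value under 0.05, all higher in pubertal goats, beside 3.51% of all genes tested, and none was listed at 0. These were DCN, COL1A1, COL1A2 and COL3A1. All 4 were highest in pubertal replicate 3 and lowest in prepubertal replicate 1, so they do not count as 4 separate results. The summed anterior pituitary markers were also higher without overlap, as given below, in a sum that was mostly CGA. The part of either tissue in the difference of ALDH1L1 was not tested.

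ALDOC encodes the aldolase of glycolysis that is typical of the brain and lies mainly in astrocytes. It was at 790.8, 830.8 and 717.7 FPKM in the 3 pubertal goats, against 964.1, 841.5 and 902.6 FPKM in the 3 prepubertal goats. All pubertal libraries lay below all prepubertal libraries, with pubertal replicate 2 and prepubertal replicate 2 close together. This made a log2 difference of -0.21 with a standard error of 0.12 (adjusted p = 0.962, limma) and a 95% interval from 0.714-fold to 1.04-fold. The exact two-sided permutation p was 0.1, and the unadjusted p-value of limma was 0.113. Over the 6 fits that each lacked a library, the log2 fold change ran from -0.26 to -0.15.

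**Figure D2:**
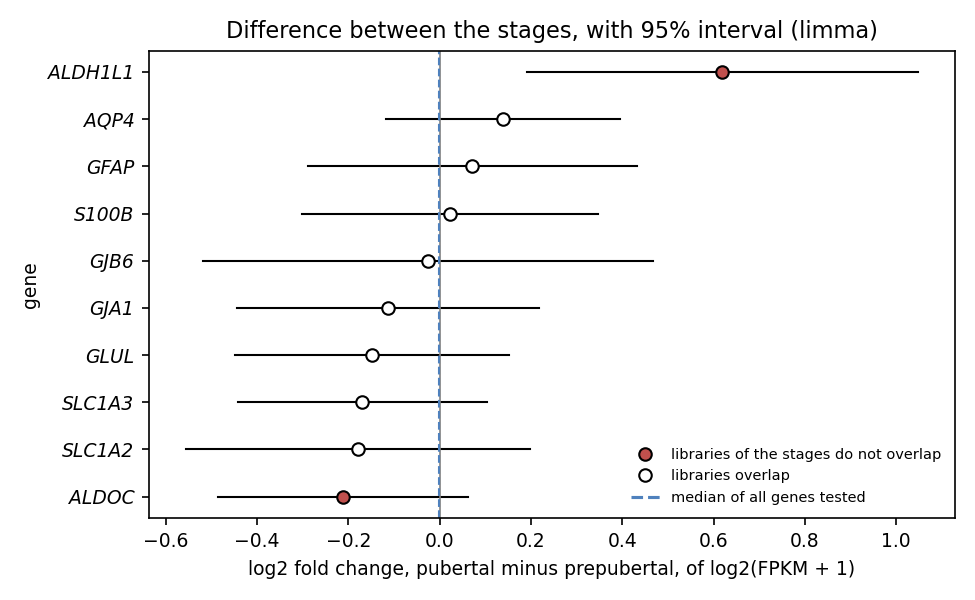
Log2 fold change of each gene, pubertal minus prepubertal, on log2(FPKM + 1) with its 95% interval from limma; filled points mark genes whose libraries do not overlap between the stages, and the dashed line marks the median of all genes tested. The interval of ALDH1L1, from 1.14-fold to 2.07-fold, is the only one that does not reach 0, and those of the other 9 genes cross it.

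The genes that clear glutamate from the synapse were next to each other in the comparison, all with slightly lower means in pubertal goats and all with overlapping libraries. SLC1A2, the main glutamate transporter of the forebrain (GLT-1), was at 215, 148.9 and 210.2 FPKM in the 3 pubertal goats, against 234, 183 and 229 FPKM in the 3 prepubertal goats. Replicate 2 was the lowest library of each stage, though these were different goats of different stages. The log2 difference was -0.18 with a standard error of 0.16 (adjusted p = 0.962, limma). Without pubertal replicate 2 it was -0.0091, without prepubertal replicate 1 -0.11, without pubertal replicate 1 -0.27 and without prepubertal replicate 2 -0.29, and it was -0.10 after quantile normalization.

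SLC1A3, the transporter also known as GLAST, was at 618, 643 and 656 FPKM in the 3 pubertal goats, against 718, 803 and 644 FPKM in the 3 prepubertal goats. The pubertal libraries were close together, and prepubertal replicate 3 lay between pubertal replicates 2 and 3. Its log2 fold change was -0.17, with a 95% interval from 0.736-fold to 1.07-fold (adjusted p = 0.962 from limma), and it was -0.090 both without prepubertal replicate 2 and after quantile normalization. The ratio of SLC1A3 to SLC1A2 within a library was 2.87, 4.32 and 3.12 in the pubertal and 3.06, 4.39 and 2.82 in the prepubertal replicates 1, 2 and 3. This ratio was high in 1 library of each stage, replicate 2, and its range was alike in both stages.

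GLUL encodes glutamine synthetase, which turns the glutamate taken up into glutamine. It was at 478, 397 and 417 FPKM in the 3 pubertal goats, against 512, 409 and 515 FPKM in the 3 prepubertal goats. Prepubertal replicate 2 lay inside the pubertal range. GLUL thus differed by -0.15 on the log2 scale, with a 95% interval from 0.733-fold to 1.11-fold (adjusted p = 0.962, limma). It was -0.26 without prepubertal replicate 2 and -0.22 without pubertal replicate 1, and between -0.096 and -0.092 without pubertal replicate 2, prepubertal replicate 1 or prepubertal replicate 3, and -0.094 after quantile normalization. Relative to SLC1A2, GLUL was between 1.98 and 2.67 in the pubertal and between 2.18 and 2.25 in the prepubertal libraries, so the prepubertal goats differed less in this ratio than in either gene.

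AQP4 encodes the water channel of the astrocyte endfeet. It was at 439, 401 and 444 FPKM in the 3 pubertal goats, against 361, 370.4 and 438 FPKM in the 3 prepubertal goats. Prepubertal replicate 3 was as high as the pubertal libraries, and the other prepubertal libraries lay below them all. Its log2 difference of 0.14 had a standard error of 0.11 and a 95% interval from 0.922-fold to 1.32-fold (adjusted p = 0.962, limma), and it lay between 0.086, without prepubertal replicate 1, and 0.23, without prepubertal replicate 3, in all alternatives tried (0.22 after quantile normalization).

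GJA1 encodes connexin 43, the main gap junction protein of astrocytes. It was at 750.9, 536 and 604 FPKM in the 3 pubertal goats, against 649, 726 and 653 FPKM in the 3 prepubertal goats. The pubertal libraries spanned the prepubertal range on both sides. GJA1 differed by -0.11 on the log2 scale with a standard error of 0.14 (adjusted p = 0.969, limma). The difference was -0.25 without pubertal replicate 1, at an unadjusted p-value of 0.0454, -0.060 without prepubertal replicate 2 and -0.0039 without pubertal replicate 2, and it was -0.036 after quantile normalization.

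GJB6 encodes connexin 30, the second gap junction protein of astrocytes. It was at 15.7, 20.0 and 31.5 FPKM in the 3 pubertal goats, against 21.7, 21.5 and 22.5 FPKM in the 3 prepubertal goats. The means were nearly equal, 22.4 ± 8.16 and 21.9 ± 0.517 FPKM (SD, n = 3 each), while the pubertal goats were spread widely around the closely grouped prepubertal goats. The log2 difference was -0.026 with a standard error of 0.21 (adjusted p = 0.997, limma), and it was -0.29 without pubertal replicate 3, 0.19 without pubertal replicate 1 and 0.022 without pubertal replicate 2. GJB2, connexin 26, which was picked out after its values were seen, reached 6.29 FPKM in pubertal replicate 3, while the others lay between 1.11 and 1.85 FPKM. The leptomeningeal markers summed to 362 FPKM in that library and to at most 163 FPKM in any other, and their part in the values of both connexins was not tested. The ratio of GJA1 to GJB6 was 48.0, 26.8 and 19.2 in the pubertal and 29.9, 33.8 and 29.0 in the prepubertal replicates 1, 2 and 3.

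**Figure D3:**
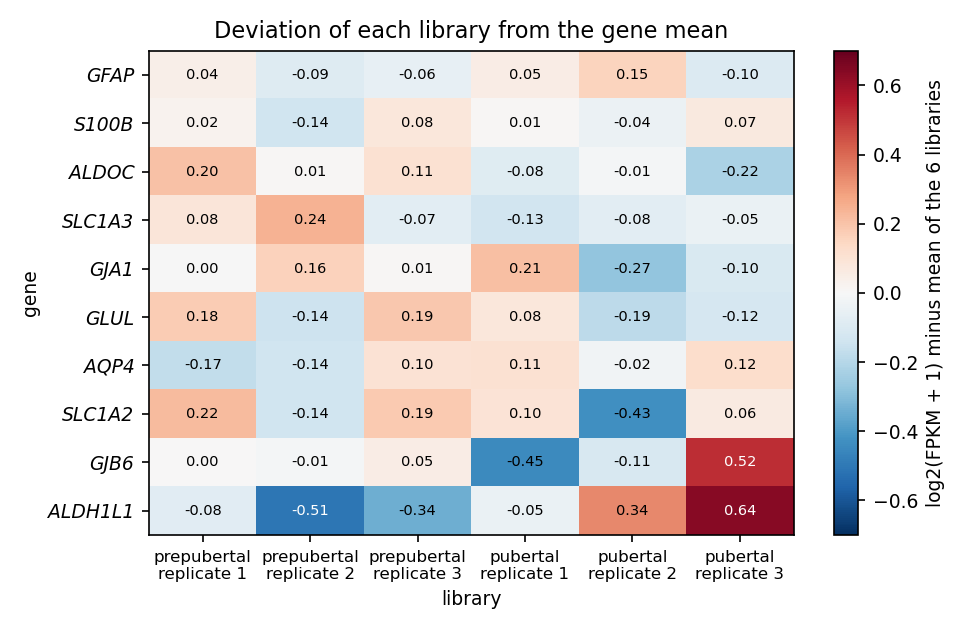
Each gene (rows, from highest to lowest mean level) in each library (columns), as log2(FPKM + 1) minus the mean of the gene over the 6 libraries. Most deviations are small, and the largest belong to ALDH1L1 (0.64) and GJB6 (0.52) in pubertal replicate 3 and to ALDH1L1 in prepubertal replicate 2 (-0.51).

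The 10 genes did not move as a block from library to library. Of the 45 pairs of genes, 22 had a Pearson r above 0 and 23 below 0 over the 6 libraries, from -0.80 for AQP4 with SLC1A3 to 0.84 for GLUL with SLC1A2, given as a description of 6 libraries that share one scaling. Pubertal replicate 3 was the highest library for 3 genes and the lowest for 2, and pubertal replicate 2 was the lowest for 3 and the highest for 1. The SD of log2(FPKM + 1) over the 6 libraries had a median of 0.158 in these genes, beside 0.135 in the 8116 genes with a mean of at least 10 FPKM. It was lowest in S100B (0.0809) and highest in ALDH1L1 (0.425). The summed level of the 10 genes, in which GFAP and S100B weigh most, lay between 7288 and 7678 FPKM in pubertal and between 7305 and 7831 FPKM in prepubertal libraries.

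The transcripts behind these sums were examined next. A single transcript was listed for 8 of the genes, and AQP4 and SLC1A2 had 3 each. Of AQP4, XM_005697024.1 (1301 nt) made up 85.9% to 88.6% of the FPKM in the 6 libraries and was at 384, 355 and 392 FPKM in the 3 pubertal goats, against 310, 320.4 and 386 FPKM in the 3 prepubertal goats. XM_005697025.2 (1401 nt) was between 30.9 and 39.4 FPKM and XM_005697026.2 (1520 nt) between 14.6 and 16.2 FPKM, and both had nearly equal means in the stages. The higher mean of AQP4 in pubertal goats thus lay in its most abundant transcript, which differed by 0.16 on the log2 scale (adjusted p = 0.972, limma).

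Of SLC1A2, XM_005690089.2 (4414 nt) made up 97.2% to 98.5%. XM_013969795.1 (4610 nt) was at 5.87, 2.46 and 5.30 FPKM in the 3 pubertal goats, against 5.80, 2.45 and 2.16 FPKM in the 3 prepubertal goats. XM_013969794.1 (4478 nt) had 0 FPKM listed in the 3 pubertal goats and was at 0.828, 1.39 and 1.35 FPKM in prepubertal replicates 1, 2 and 3. It held 0.353% to 0.761% of the FPKM of SLC1A2 in the prepubertal libraries, so it hardly touched the sum. Its unadjusted p-value in limma was 0.000175 and its adjusted p-value over 23821 transcripts was 0.397. A value of 0 in these tables may be a failed estimate, since MBP, myelin basic protein, was also listed at 0 in prepubertal replicate 1, so the absence of this transcript was not read from it. Of the 14 transcripts, 0 had an adjusted p-value under 0.05 in limma (0.0% of all transcripts) and 2 an unadjusted one, XM_013969794.1 (lower in pubertal goats, as 2.0% of all transcripts) and that of ALDH1L1 (higher, as 2.87%), against 4.87% of all transcripts in either direction. This count of 2 was 1 without pubertal replicate 3 and without prepubertal replicate 2, when ALDH1L1 was lost. In 3 of the 14, those of ALDH1L1, ALDOC and XM_013969794.1, the stages did not overlap, against 9.56% of all transcripts (5.52% with pubertal higher and 4.04% with pubertal lower).

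Further genes that are known from astrocytes were read from 5 lists. Of 26 other astrocyte identity genes, 20 were in the table and all 20 were tested. Of these, 4 were higher and 2 lower in pubertal goats at an unadjusted p-value under 0.05, 0 at an adjusted one in limma, where 3.51% of all genes tested were higher and 1.65% lower at that unadjusted p-value. Their median log2 fold change was 0.055 beside -0.00065 for all genes, and it was 0.030 without prepubertal replicate 2, 0.089 without pubertal replicate 2 and 0.083 after quantile normalization. ENTPD2, an enzyme that hydrolyses ATP outside the cell, had the lowest p-value of the list and was at 21.0, 22.7 and 20.5 FPKM in the 3 pubertal goats, against 12.1, 13.2 and 14.03 FPKM in the 3 prepubertal goats. Its pubertal libraries were close together and well above the prepubertal libraries. The log2 difference was 0.67 with a standard error of 0.096 (adjusted p = 0.230, limma). In all alternatives it lay between 0.62 and 0.71, and the adjusted p-value in limma ran from 0.165 to 0.889.

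FABP7, the fatty acid binding protein of radial glia and of astrocytes in the young brain, was lower in pubertal goats. It was at 15.6, 28.6 and 31.0 FPKM in the 3 pubertal goats, against 39.7, 47.9 and 48.6 FPKM in the 3 prepubertal goats, with no overlap. It differed by -0.88 on the log2 scale with a standard error of 0.23 (adjusted p = 0.767, limma), and by -0.58 without pubertal replicate 1. SLC39A12, a zinc transporter, was at 40.9 ± 8.61 against 53.4 ± 4.99 FPKM (SD, n = 3 each), with overlap. F3, the coagulation receptor tissue factor, was at 9.36 ± 2.91 against 6.26 ± 0.534 FPKM (SD, n = 3 each), highest in pubertal replicate 3. The most abundant gene of the list, APOE, the lipid carrier secreted by astrocytes, was at 1781 ± 390 against 1800 ± 128 FPKM (SD, n = 3 each). The count of 6 genes was 4 without pubertal replicate 2, 3 without pubertal replicate 3, prepubertal replicate 2 or prepubertal replicate 3, and 2 without prepubertal replicate 1.

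Of 14 partners of the endfeet, of potassium uptake and of the gap junctions 13 were tested, 1 was higher at an unadjusted p-value under 0.05 (3.51% of all genes were) and 0 at an adjusted one in limma, and the median log2 fold change was 0.099. The gene was GJA4, connexin 37, which is known from blood vessels rather than astrocytes, at 3.32, 3.86 and 3.61 FPKM in the 3 pubertal goats, against 2.58, 1.91 and 3.31 FPKM in the 3 prepubertal goats. MLC1, an endfoot membrane protein and the most abundant gene of this list, was at 110 ± 17.6 against 99.9 ± 8.45 FPKM (SD, n = 3 each). The count of 1 became 2 without pubertal replicate 1, and 0 without pubertal replicate 3, prepubertal replicate 1 or prepubertal replicate 2.

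Of 13 genes that handle glutamate and glutamine, all were tested, 0 had an unadjusted or adjusted p-value under 0.05 in limma, and the median log2 fold change was -0.041. That median was -0.015, -0.021 and -0.024 without pubertal replicates 1, 2 and 3, -0.013 without prepubertal replicate 2 and -0.0048 with the most abundant transcript of each gene. Their summed level was lower in pubertal goats without overlap, 851 to 904.5 FPKM against 912 to 930.2 FPKM. Taken alone, each of the 13 genes overlapped between the stages, beside 9.75% of all genes tested that did not. GOT1 had the largest drop in FPKM, at 186 ± 25.9 against 216 ± 18.7 FPKM (SD, n = 3 each). GLUD1, glutamate dehydrogenase and the most abundant of the 13, had a slightly higher mean, 255 ± 12.8 against 249.6 ± 11.9 FPKM (SD, n = 3 each). The count of 0 became 2 without pubertal replicate 1, and 1 without pubertal replicate 2, prepubertal replicate 2 or prepubertal replicate 3.

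Of 13 genes for glucose and lactate metabolism, all tested, 2 were higher in pubertal goats at an unadjusted p-value under 0.05 (3.51% of all genes were) and 0 at an adjusted one in limma. Their median log2 fold change was 0.075, and it was 0.037 without pubertal replicate 2, 0.012 without pubertal replicate 3 and 0.011 without prepubertal replicate 1. SLC2A1, the glucose transporter of endothelium and astrocytes, was at 70.0, 65.6 and 75.5 FPKM in the 3 pubertal goats, against 58.9, 59.3 and 58.6 FPKM in the 3 prepubertal goats, without overlap. This was a log2 difference of 0.25 with a standard error of 0.083 (adjusted p = 0.832, limma). PYGM, a glycogen phosphorylase, was at 22.6 ± 3.14 against 15.1 ± 3.54 FPKM (SD, n = 3 each). LDHB, a subunit of lactate dehydrogenase and the most abundant of the list, was at 433 ± 40.9 against 464 ± 30.9 FPKM (SD, n = 3 each). The count of 2 became 3 without pubertal replicate 2, and 1 without pubertal replicate 3, prepubertal replicate 1 or prepubertal replicate 3.

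Genes known to be induced in reactive astrocytes had the highest median log2 fold change of the 5 lists, 0.20. It was 0.087 without pubertal replicate 3, 0.12 without prepubertal replicate 3 and 0.35 without pubertal replicate 2, and 0.32 with a minimum mean of 1 FPKM. Of 20 genes 16 were tested, and 4 were higher at an unadjusted p-value under 0.05, as were 3.51% of all genes, and 0 at an adjusted one in limma. CXCL10, a chemokine induced by interferon, was at 39.4, 39.4 and 36.8 FPKM in the 3 pubertal goats, against 20.3, 22.9 and 29.0 FPKM in the 3 prepubertal goats, a log2 difference of 0.67 with a standard error of 0.13 (adjusted p = 0.639, limma). SERPING1, the C1 inhibitor, was at 3.88, 8.35 and 12.9 FPKM against 2.72, 3.18 and 2.04 FPKM. S1PR3, a sphingosine phosphate receptor, was at 4.96 ± 0.168 against 3.31 ± 0.685 FPKM (SD, n = 3 each), and complement C3 at 369 ± 37.8 against 282 ± 45.2 FPKM (SD, n = 3 each). CXCL10, SERPING1 and C3 are also genes of the interferon response and of complement and are not specific to astrocytes. GFAP, which often rises in reactive astrocytes, overlapped between the stages, as did VIM, vimentin. VIM reached 468.8 FPKM in pubertal replicate 3 while the others lay between 176 and 303 FPKM. Whether astrocytes were reactive was not tested. Microglia markers summed to between 395 and 484 FPKM in pubertal and between 369.8 and 421 FPKM in prepubertal libraries, with 4 of 10 higher at an unadjusted p-value under 0.05 beside the same 3.51%. These were C1QA, C1QB, C1QC and ITGAM. The C1Q genes were all highest in pubertal replicate 1 and lowest in prepubertal replicate 1, so they do not count as separate results. Of the 10 markers 7 had a positive log2 fold change and 3 a negative one, AIF1 (-0.017), P2RY12 (-0.18) and TREM2 (-0.21). Leptomeningeal markers were higher as given above. The part of microglia and of the meninges in the values of the reactive astrocyte genes was not tested. The count of 4 was 8 without pubertal replicate 2 and between 3 and 6 without each other library.

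**Figure D4:**
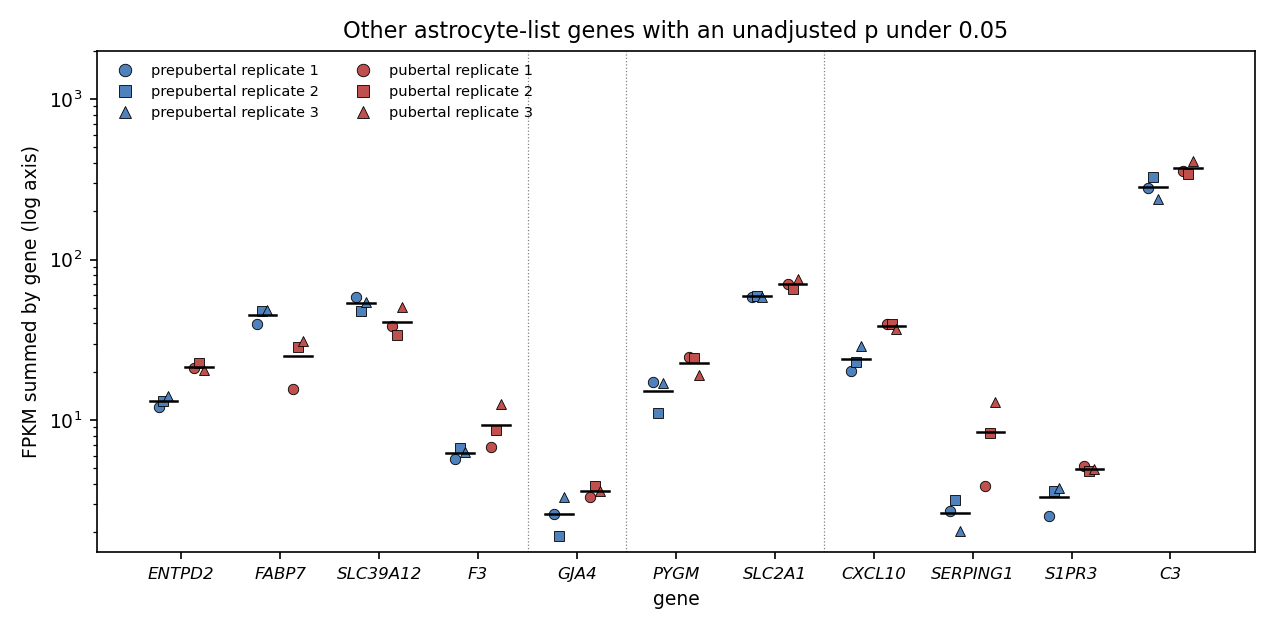
FPKM on a log axis of the 11 genes of the astrocyte lists with an unadjusted p-value under 0.05 that were chosen by smallest p, at most 4 per list, in prepubertal (blue) and pubertal (red) libraries, with bars at the stage means and dotted lines between lists. ENTPD2, CXCL10 and S1PR3 show narrow pubertal groups above the prepubertal points, FABP7 lies lower in pubertal goats, and F3 and SERPING1 are highest in pubertal replicate 3.

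Other cell types in the tissue were followed by their markers, because the tissue was not sorted. The counts of markers stand beside 3.51% of all genes higher and 1.65% lower at an unadjusted p-value under 0.05. The summed neuron markers lay between 2109 and 2494 FPKM in pubertal and between 2387 and 2683 FPKM in prepubertal libraries, and 0 of 9 tested had an unadjusted p-value under 0.05. Oligodendrocyte markers without MBP, which was listed at 0 in 1 library, lay between 1530 and 2123 FPKM against 1455 and 2166 FPKM, and 0 of 9 tested had an unadjusted p-value under 0.05. Markers of oligodendrocyte precursors lay between 113 and 115 FPKM against 103 and 114 FPKM, with 0 of 6, and endothelial markers between 52.3 and 73.1 FPKM against 45.2 and 57.7 FPKM, with 1 of 8 higher. Tanycyte markers lay between 151 and 177 FPKM against 130 and 196 FPKM, and 0 of 8 tested had an unadjusted p-value under 0.05. Ependymal markers were lower in pubertal goats without overlap, 115 to 136 FPKM against 145 to 156 FPKM, with 2 of 10 at an unadjusted p-value under 0.05. Anterior pituitary markers were higher without overlap, 52.8 to 66.0 FPKM against 3.75 to 20.9 FPKM, with 2 of 6 tested at an unadjusted p-value under 0.05 and GH1, TSHB, FSHB and POU1F1 listed at 0 in some libraries. Choroid plexus markers were at 333 FPKM in pubertal replicate 3 and at most at 60.4 FPKM in the others, with 0 of 8 at an unadjusted p-value under 0.05. Most of this sum was TTR, at 309 FPKM in pubertal replicate 3 and 53.4 FPKM in prepubertal replicate 1. KCNJ13 was at 14.4 FPKM in pubertal replicate 3 and at most at 1.86 FPKM in the others, while OTX2 was lowest in that library, at 1.15 FPKM. None of these lists had a gene with an adjusted p-value under 0.05 in limma. Pubertal replicate 3 thus stood apart in meningeal and choroid plexus markers, and the part of these tissues in the values of the astrocyte genes was not tested. Without this library, the 10 genes had a median log2 fold change of -0.11, and 1 of them an unadjusted p-value under 0.05.

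**Figure D5:**
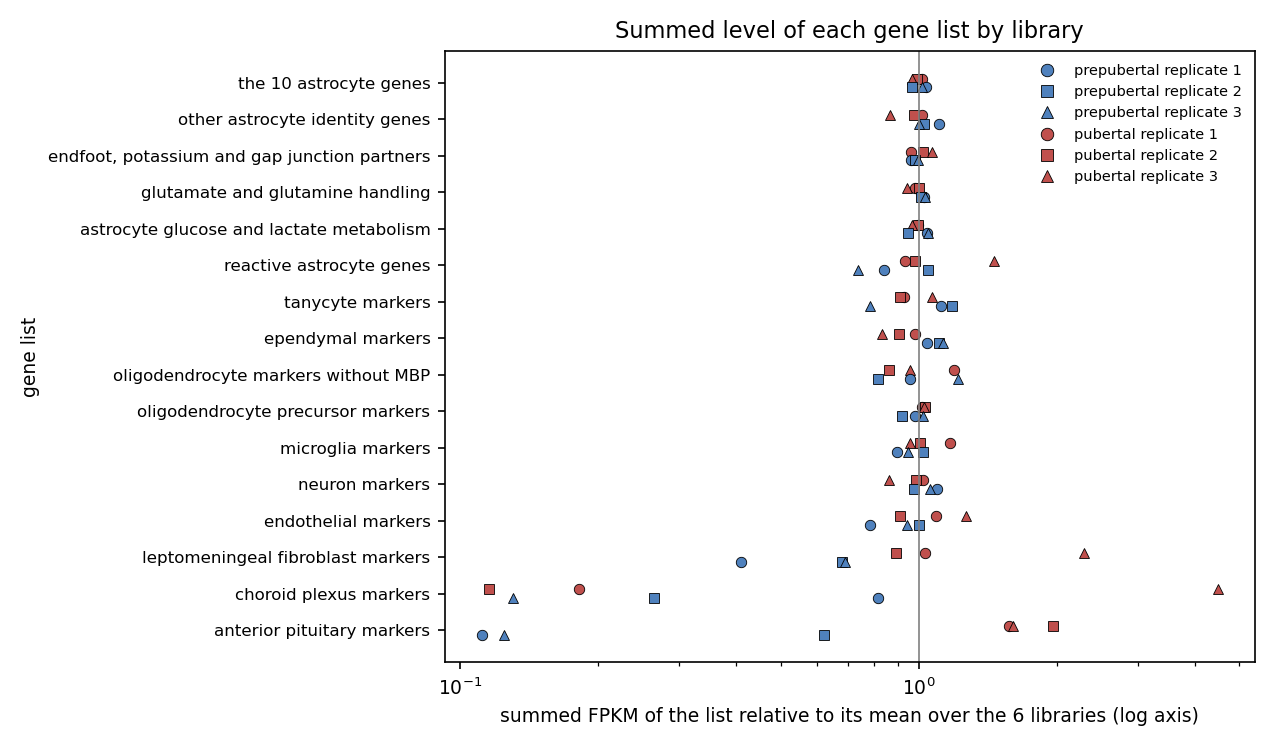
Summed FPKM of each gene list in each library, relative to its mean over the 6 libraries, on a log axis, with prepubertal libraries in blue and pubertal in red; oligodendrocyte markers are drawn without MBP. The 10 astrocyte genes lie within a narrow band around 1, in a sum in which GFAP and S100B weigh most. The glutamate, glucose and lactate, endfoot and oligodendrocyte precursor lists also lie close to 1. Leptomeningeal, choroid plexus and anterior pituitary markers spread widely, and choroid plexus markers reach 333 FPKM in pubertal replicate 3, most of it TTR.

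The genes whose values over the 6 libraries were most like the mean pattern of the 10 genes were DCAF16 (Pearson r = 0.982), the gene with the identifier 106502226 (0.971), SIPA1L2 (0.967), TTC29 (0.963) and GRB14 (0.957), among 14081 genes with a mean of at least 1 FPKM. DCAF16 was at 15.1, 13.6 and 16.1 FPKM in the 3 pubertal goats, against 16.9, 14.03 and 16.9 FPKM in the 3 prepubertal goats. It overlapped between the stages and was lowest in replicate 2 of each. Most like GFAP alone were AURKC (0.992), MPP3 (0.988) and PDXK (0.984), most like AQP4 were HPS5 (0.991), LOC102190263 (0.990) and LARP1 (0.990), and most like SLC1A2 were UIMC1 (0.990), PPARA (0.980) and LOC102178029 (0.980). These values of r rank many genes on 6 libraries that share one scaling and are given as a description.

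The 6 libraries were close at their median. The median log2(FPKM + 1) lay between 3.80 and 3.83 over the genes with a mean of at least 1 FPKM. This median does not describe the scale of far more abundant genes such as GFAP. Quantile normalization raised the log2 fold change of GFAP from 0.072 to 0.24 and of S100B from 0.023 to 0.13. SLC1A3 went from -0.17 to -0.090 and GJA1 from -0.11 to -0.036. AQP4, GLUL, SLC1A2, ALDOC and GJB6 also rose, and only ALDH1L1 fell, from 0.62 to 0.61. Because FPKM without counts was deposited, depth is unknown and no interval for counting error was given. A short transcript of NKD2 alone took 21.4% to 52.7% of all FPKM, so the values were not rescaled to their sum. Its share was 39.4%, 28.1% and 35.2% in pubertal and 52.7%, 21.4% and 35.0% in prepubertal replicates 1, 2 and 3. In both stages replicate 1 had the highest share and replicate 2 the lowest. Whether the number marks a shared step of processing is not given by the labels and was not tested.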

How the data were processed

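The authors removed ribosomal RNA, sequenced strand-specific paired-end libraries, mapped them with TopHat to a goat genome and estimated transcript levels with Cufflinks 2.1.1, per the labels and the study's methods. The genome build is not given in the sources used here. The deposited values are FPKM per transcript and library. They were computed by the authors and hold no counts. The deposited comparison table was used only for transcript, gene and length; its group means, fold changes, p-values and q-values were not used. The lncRNA tables name no genes and were not used.

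FPKM was summed by NCBI gene identifier, and symbols came from RefSeq for ARS1.2, matching 19083 of 20225 genes (94.4%); no coordinates were taken from it. The stages were compared on log2(FPKM + 1) by a two-sided test in limma 3.58.1 (R 4.3.3; lmFit, and eBayes with its trend option), with a minimum mean of 0.1 FPKM. Folds on this scale understate the change of low genes. The fit was tested on simulated data. Python 3.11.15, numpy 2.4.6, pandas 2.3.3 and matplotlib 3.10.9 were used for the rest.

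The 10 genes and the lists were chosen with earlier results of these data known. All 10 were named; of the astrocyte lists, up to 4 genes by smallest unadjusted p under 0.05 and the most abundant; lists of other cell types are given by counts and sums. GJB2, VIM, MBP, GOT1, the single markers named of other cell types, the transcripts under 5% of their gene and the ratios between genes were picked after their values were seen. Alternatives were other pseudocounts, minima, normalizations and transcript choices, limma without a trend, the replicate number as a block, and leaving out each library in turn; for the counts of the lists this was added after the data were seen.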

Additional observations from a re-analysis of the deposited data

How the results depend on the processing

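FPKM without counts gives no depth, and an exact permutation test of 3 goats against 3 cannot go below 0.1. In every alternative none of the 10 genes had an adjusted p-value under 0.05 in limma (a count of 0, with 1 or 2 at an unadjusted p-value under 0.05). The number of genes with an unadjusted p-value under 0.05 was 846 of 16397, 575 higher and 271 lower. Quantile normalization gave 462 higher and 377 lower. Leaving out each library in turn gave between 500 and 2220 genes, the lowest without prepubertal replicate 1 and the highest without pubertal replicate 1, and between 0 and 4 at an adjusted p-value under 0.05, 4 without pubertal replicate 2 and 1 without prepubertal replicate 2 or 3. Among the 10 genes the unadjusted count then ran from 1 to 2, and among their 14 transcripts from 1 to 2. A minimum mean of 1 FPKM left 1 transcript, since XM_013969794.1 was no longer tested. The labels number the goats from 1 to 3 in each stage. Same-numbered libraries had correlated deviations of -0.0286, -0.107 and 0.0876 over 14081 genes, so the numbers were not taken to pair the goats. With the replicate block, 1 gene had an adjusted p-value under 0.05, and no call among the 10 genes changed. Some small differences changed direction. With a library left out, GJB6 and its only transcript ran from -0.29 to 0.19, S100B and its transcript XM_005675677.2 from -0.041 to 0.069, APOE from -0.21 to 0.084, GLUD1 from -0.0018 to 0.073, XM_005697025.2 from -0.088 to 0.083 and XM_005697026.2 from -0.031 to 0.041. Quantile normalization gave APOE 0.041 and XM_005697025.2 0.016, and median centring gave XM_005697026.2 -0.013 and XM_005675677.2 -0.0013. The causes were not tested. The other 8 of the 10 genes, all but GJB6 and S100B, kept their direction in every alternative tried.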
